A study of Mus musculus with 2 samples.

Results

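Cells that the authors labelled follicular B cells were 55 of 5793 cells sorted from mouse blood as myeloid cells 24 h after an experimental stroke. They were chosen by that label alone, 14 in the library of young and 41 in that of aged mice. All mice were C57BL/6, aged 2 to 4 months in the young group and 18 to 24 months in the other. In both groups the middle cerebral artery had been closed transiently at its proximal end, so no group without a stroke is available for comparison. Blood cells were stained and sorted as CD11b-positive cells with and without Ly6G, the neutrophil surface antigen, and sequenced by the droplet-based 10x 3′ v2 method. Each age had 1 library, and whether mice were pooled is not given in the sources used here. No difference between ages therefore has a replicate check, every statement compares these libraries and not ages, and the intervals given are 95% and cover counting error only.

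B cells carry an antigen receptor made of a membrane immunoglobulin and the signalling pair Cd79a and Cd79b. Mature follicular B cells circulate between blood and lymphoid follicles, present antigen on MHC class II, and can become antibody-secreting plasma cells, which enlarge their endoplasmic reticulum and turn down much of the B-cell program. CD11b, encoded by Itgam, is mainly a myeloid integrin and is not a usual surface marker of follicular B cells, although innate-like B-1 cells and some age-associated B cells carry it.

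B cells made up 0.757% (0.415% to 1.27%) of 1849 young and 1.04% (0.747% to 1.41%) of 3944 aged cells, shares that the sort can set. Young B cells held 67066 UMIs (unique molecular identifiers, each a counted RNA molecule) and aged ones 272966, with a median of 3463.5 and 5717 UMIs and 1095.5 and 1776 genes per cell. Depth ran from 1260 to 12316 UMIs in young and from 1579 to 16922 in aged B cells. The whole libraries had 6440664 and 13752454 UMIs. Of the cell barcodes, 12 occurred in both libraries, and 1 of these belonged to a B cell.

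The label was checked first against 5 markers of the lineage: Cd79a and Cd79b, Ms4a1, which encodes CD20, the transcription factor Ebf1, and Fcmr, the receptor for IgM. All 14 young cells and 40 of 41 aged cells had UMIs of at least 3 of the 5. Outside the label only 2 cells did, 1 aged monocyte with all 5 markers, 9859 UMIs and 59 UMIs of the myeloid lysozyme gene Lyz2, and 1 aged conventional dendritic cell (cDC) with 4 markers. Because the authors drew the labels on these same cells, this separation describes the label and is not a test of it.

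Cd79a stood at 1819 CPM (counts scaled to the same total of UMIs in every population) in young B cells (1511 to 2172) and 1059 CPM in aged B cells (940 to 1188), against at most 6.75 CPM in any other population compared. Cd79b was at 1223 CPM (972 to 1518) and 1018 CPM (902 to 1145), against at most 17.6 CPM. Ms4a1 was at 626 CPM (451 to 847) and 454 CPM (378 to 542), and no UMI of it was found in young neutrophils, monocytes, cDC or NK cells. Ebf1 was at 537 CPM and 293 CPM, and Fcmr at 209 CPM and 216 CPM. The intervals of both libraries did not overlap for Cd79a and Ebf1, which were lower in the aged library, and overlapped for Cd79b, Ms4a1 and Fcmr. Without the cells described next, the values were closer for Cd79a, at 2608 CPM (2097 to 3206) and 1932 CPM (1643 to 2257), and for Ebf1, at 724 CPM (469 to 1069) and 571 CPM (420 to 759).

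**Figure D1:**
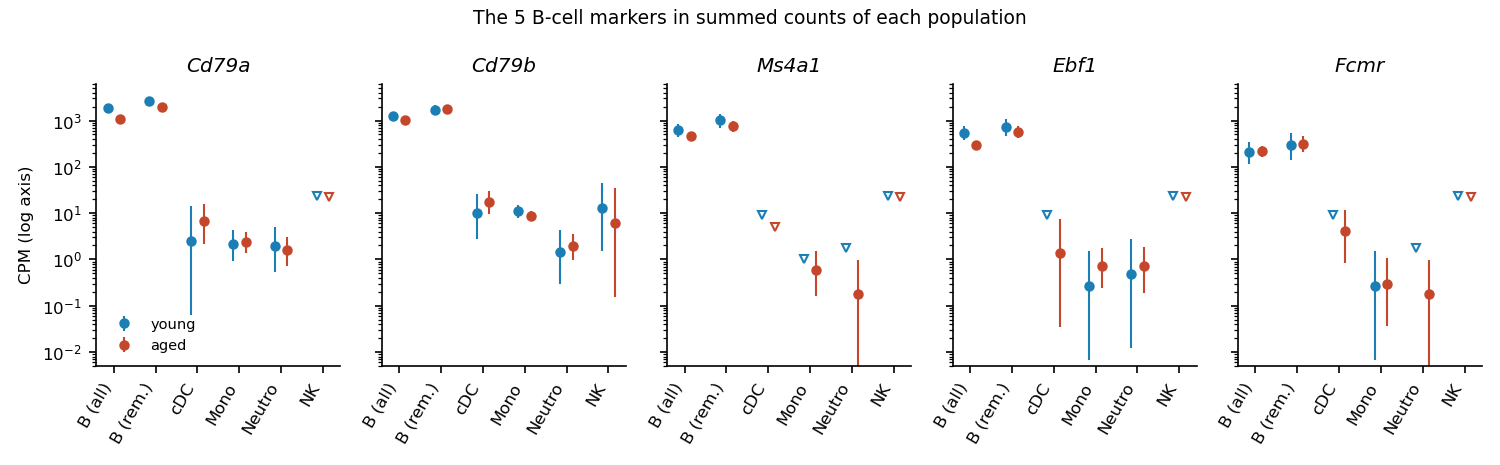
Level of the 5 B-cell markers in CPM (log axis) in summed counts of each labelled population, young in blue and aged in red, with 95% Poisson intervals. An open triangle is the upper limit of the interval where no UMI was counted. B (rem.) is the B cells without the Jchain-high, monocyte-marker-high and neutrophil-marker-high cells. The lowest value in all labelled B cells is 209 CPM, and the highest count-based value in another population is 17.6 CPM.

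The 55 cells were not uniform, and were divided into 4 kinds by transcripts other than the 5 markers. In 3 aged cells, 1176 of the 1177 Jchain UMIs of aged B cells were found. In 15 aged and 3 young cells the UMIs of 12 monocyte markers made up at least 0.5% of the cell, and in 6 aged and 0 young cells those of 12 neutrophil markers made up at least 5%, 2 of them among the 15. The remaining 19 aged and 11 young cells held 30.1% and 51.5% of the B-cell UMIs of their library. These thresholds were set after seeing the values, so each result below is also given for the remaining cells where they change it.

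The 3 Jchain-high cells had the transcripts of plasma cells. All were aged, but Jchain was listed at 0 in every young cell, which may be a filter. A young cell of this kind could therefore not be found by Jchain. Jchain encodes the chain that joins IgM and IgA into polymers, and its UMIs numbered 679, 257 and 240 in cells of 6325, 8279 and 12190 UMIs. Every other aged B cell had 0 or 1. In the other aged populations compared, no cell had more than 1. The 3 cells together had 43890 CPM of Jchain, at least 1204-fold above the aged remaining cells, which had none of it. Since the cells were chosen by having at least 10 Jchain UMIs, a difference in Jchain follows from that choice.

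Around Jchain stood genes of protein folding and export in the endoplasmic reticulum. Mzb1, an endoplasmic reticulum protein that helps antibody assembly, had 29, 99 and 147 UMIs in these 3 cells, 10264 CPM together against 1142 CPM in the aged remaining cells, a ratio of 8.99 (7.08 to 11.5). The chaperone Hsp90b1 (GRP94) had 13, 109 and 108 UMIs, at a ratio of 33.6 (21.5 to 55.4). Hspa5 (BiP), the main chaperone of the compartment, had 8, 49 and 31 UMIs, at a ratio of 24.6 (13.1 to 51.0). The stress-induced secreted protein Manf stood at a ratio of 34.0 (18.9 to 67.5), the disulfide isomerase Pdia4 at 18.8 (11.2 to 33.5) and the lectin chaperone Calr at 15.8 (9.62 to 27.4). Derl3, a part of the degradation machinery, had 7, 18 and 4 UMIs and was found in no other B cell. Xbp1, the transcription factor of the secretory program, had 8, 10 and 7 UMIs, at a ratio of 12.8 (5.12 to 38.1). The cell with most Jchain had fewer UMIs than the other 2 of Hsp90b1, Hspa5 and Mzb1, so Jchain and the folding genes did not rank these cells alike.

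Genes of the mature B cell were lower in the same 3 cells. Ms4a1 had 1 UMI in the 3 cells together, 37.3 CPM against 753 CPM in the remaining cells, a ratio of 0.0495 (0.00123 to 0.286). Ly6d, a surface marker of the B lineage, was at a ratio of 0.0960 (0.0258 to 0.252), the MHC class II genes H2-Aa and H2-Ab1 at 0.152 (0.0975 to 0.227) and 0.166 (0.105 to 0.251), and the class II invariant chain Cd74 at 0.210 (0.169 to 0.259). Cd79a, at 14 UMIs, was at 0.270 (0.145 to 0.467), and Cd79b, at 16 UMIs, at 0.339 (0.189 to 0.569). The cell with 257 Jchain UMIs had UMIs of Cd79b alone among the 5 markers and was the 1 aged cell with fewer than 3. The label of a follicular B cell therefore goes against the leading genes of these 3 cells. Irf4, a factor of plasma-cell differentiation, had 8 UMIs in them and Prdm1 had 4.

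**Figure D2:**
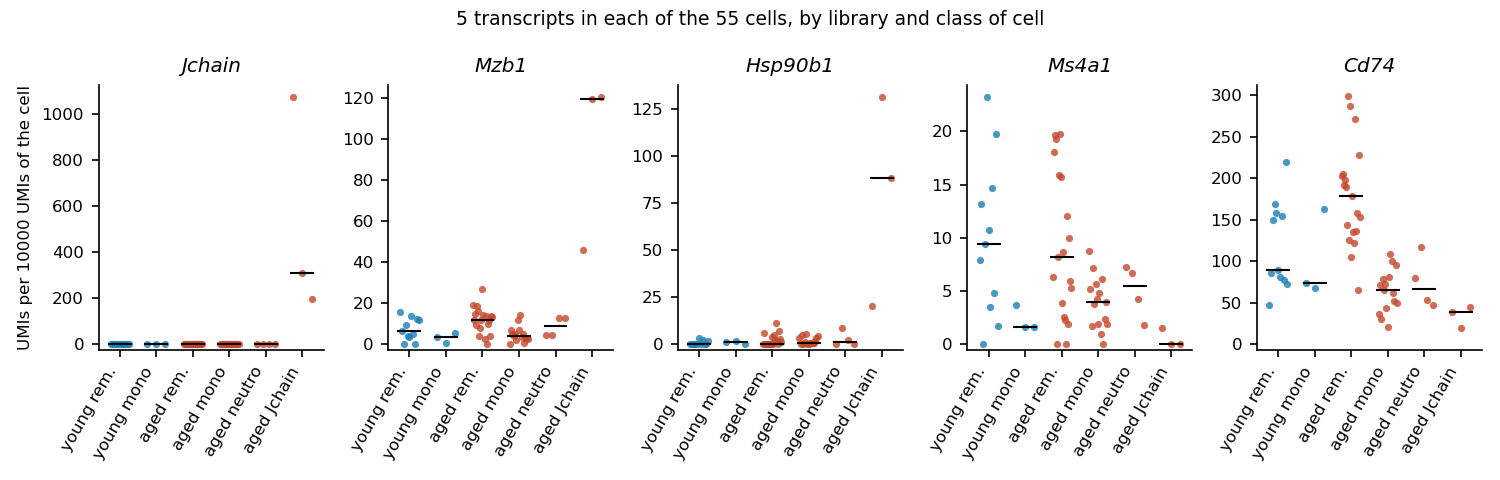
UMIs per 10000 UMIs of the cell for 5 transcripts, with 1 point for each of the 55 cells and a line at the median, by library and class of cell (young in blue, aged in red). The 3 Jchain-high cells stand above all other cells for Jchain, Mzb1 and Hsp90b1 and have 1 UMI of Ms4a1 between them. For Jchain this follows from how they were chosen. The 2 cells high in both monocyte and neutrophil markers are drawn with the monocyte-marker-high cells.

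Promoters of the genes highest in the Jchain-high cells are shown because a known element of the unfolded protein response, the endoplasmic reticulum stress element (ERSE), is defined by its letters. Of the 25 genes with the highest lower bound of that ratio, 20 had a RefSeq promoter that could be used, 250 bases before to 50 after the start. The ERSE, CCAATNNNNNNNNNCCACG on either strand with 0 mismatches, was in 6 of their 21 promoters (28.6%), those of Hsp90b1, Hspa5, Derl3, Creld2, Calr and Dnajc3. It was in 39 of all 32851 promoters (0.119%) and in 9 of the 1606 promoters of genes compared in aged B cells (0.560%). A match is a description of the letters and not of binding. In the following 4 sequences, 5′ to 3′ on the strand of the gene and on GRCm38.p6, the capitals mark the fixed letters of the element.

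Hsp90b1 (chr10:86705395-86705694, minus strand), with 2 elements:
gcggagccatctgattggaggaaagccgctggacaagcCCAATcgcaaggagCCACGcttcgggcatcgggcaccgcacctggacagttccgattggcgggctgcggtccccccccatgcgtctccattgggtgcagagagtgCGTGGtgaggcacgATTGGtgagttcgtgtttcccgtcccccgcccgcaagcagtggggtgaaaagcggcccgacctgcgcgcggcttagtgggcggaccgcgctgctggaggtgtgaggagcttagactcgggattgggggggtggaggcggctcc
Hspa5 (chr2:34771840-34772139, plus strand):
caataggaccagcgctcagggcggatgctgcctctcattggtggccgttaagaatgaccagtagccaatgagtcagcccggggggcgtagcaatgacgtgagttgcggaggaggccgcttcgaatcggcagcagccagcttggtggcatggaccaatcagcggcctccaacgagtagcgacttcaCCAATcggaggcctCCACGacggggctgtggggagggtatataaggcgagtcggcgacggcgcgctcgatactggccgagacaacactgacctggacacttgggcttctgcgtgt
Derl3 (chr10:75893148-75893447, plus strand):
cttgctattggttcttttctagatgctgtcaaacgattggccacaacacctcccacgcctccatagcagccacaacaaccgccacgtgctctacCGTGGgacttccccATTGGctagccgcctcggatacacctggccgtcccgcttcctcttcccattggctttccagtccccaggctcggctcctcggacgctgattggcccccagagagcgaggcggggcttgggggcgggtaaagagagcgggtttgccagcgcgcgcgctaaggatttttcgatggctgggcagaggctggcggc
Creld2 (chr15:88819396-88819695, plus strand):
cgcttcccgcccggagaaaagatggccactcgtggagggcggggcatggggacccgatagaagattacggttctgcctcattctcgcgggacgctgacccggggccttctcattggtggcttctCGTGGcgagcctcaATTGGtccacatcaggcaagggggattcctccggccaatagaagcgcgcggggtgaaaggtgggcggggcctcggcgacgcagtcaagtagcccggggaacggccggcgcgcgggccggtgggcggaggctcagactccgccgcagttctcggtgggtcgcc

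The element began 212 and 107 bases before the start of Hsp90b1, 65 before that of Hspa5, 156 before that of Derl3 and 126 before that of Creld2. In Hsp90b1 the first copy reads forward and the second on the opposite strand. Creld2, whose product resides in the endoplasmic reticulum, had 3, 23 and 19 UMIs in the 3 cells against 2 UMIs in all 19 remaining aged cells. Promoters of the genes that set B cells apart from the other populations were searched for 2 shorter elements as well. The octamer ATGCAAAT was in 1 of 22 such promoters (Blnk) in 1.74% of all promoters and in 1.18% of those of genes compared in aged B cells. The EBF motif CCCNNGGG was in 4 of 22 (18.2%), in 13.7% of all and in 17.1% of those of genes compared, so its share was near the background.

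The 18 monocyte-marker-high cells carried B-cell and monocyte transcripts together. Monocyte markers took 0.682% to 1.56% of the 3 young cells and 0.739% to 2.96% of the 15 aged ones. No other young B cell was above 0.238% and no other aged one above 0.222%, so a gap separated them. Cells labelled monocyte had a median of 2.38% and 2.12%, and NK cells 0.199% and 0.140%. In the 15 aged cells Lyz2 was at 7332 CPM, against 267 CPM in the aged remaining cells and 11031 CPM in aged monocytes. The chitinase-like Chil3 was at 1833, 122 and 3842 CPM in that order, and the chemokine receptor Ccr2 at 772, 60.8 and 921 CPM. Cd79a was at 696 CPM in these 15 cells, against 1932 CPM in the remaining cells and 2.36 CPM in monocytes. Csf1r, Cx3cr1 and Ace were not below their level in monocytes, at 193, 62.0 and 62.0 CPM against 169, 29.3 and 15.1 CPM. These values rest on only 28, 9 and 9 UMIs in the 15 cells. Lyz2, Chil3, Ccr2, Csf1r, Cx3cr1 and Ace are all among the monocyte markers by which these cells were chosen. An excess of these markers over the remaining cells therefore follows from that choice and is no separate evidence of monocyte transcripts.

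These cells were also the deeper ones. The 3 young ones had a median of 12097 and the 15 aged ones of 10267 UMIs, against 2787 and 2572 UMIs in the remaining cells and 6604 and 6366 in monocytes. Thinned to 1000 UMIs, the aged ones had a median of 564 genes and the remaining aged cells 500. Removing the 27 young and 124 aged cells with the highest doublet scores removed none of the 55. The median score of the monocyte-marker-high cells was 0.0338 in young and 0.0576 in aged cells. That of the remaining cells was 0.0220 and 0.0460. The automatic threshold for these scores called too few cells to have worked. NK cells, another lymphoid population in the same sort, held 6 of 73 young and 6 of 63 aged cells past the same monocyte-marker share. The part that paired cells in 1 droplet or free monocyte RNA may have in these 18 cells was not tested.

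The 6 neutrophil-marker-high aged cells had 7.07% to 16.7% of their UMIs in the 12 neutrophil markers, and no other B cell exceeded 3.30%. S100a8, an abundant neutrophil transcript, had UMIs in every B cell of both libraries, also after thinning to 1000 UMIs, and in 72 of 73 young and 63 of 63 aged NK cells. Its presence in a cell is therefore not read as expression, and its source was not tested. Past 5%, 1 of 73 young and 10 of 63 aged NK cells were found. One of the 6 had 4 UMIs of Cd3d, 2 of Cd3g and 4 of Nkg7, transcripts of T and NK cells, beside 1 of Cd79a and 2 each of Cd79b and Ms4a1. Without the 3 kinds of cell the share of B cells was 0.595% (0.297% to 1.06%) among young and 0.482% (0.290% to 0.751%) among aged cells, so that the order of the libraries turned. Both pairs of intervals overlap.

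**Figure D3:**
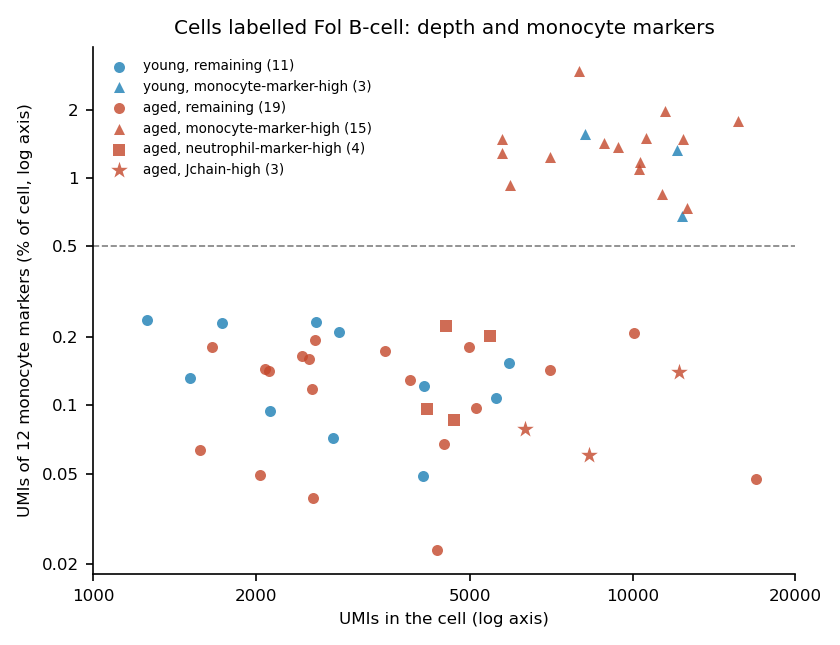
Share of each B cell's UMIs in 12 monocyte markers against its depth (both log axes), young in blue and aged in red, with the symbol giving the class of cell. The dashed line is the threshold of 0.5%. The 18 cells above it all have at least 5717 UMIs, and the highest cell below it is at 0.238%.

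Compared with neutrophils, monocytes, cDC and NK cells, aged B cells had 54 of 1666 genes (3.24%) at least 2-fold above the next highest of these populations. Young B cells had 57 of 1661 (3.43%). They shared 33 genes, 61.1% of the aged and 57.9% of the young ones. The median gene of aged B cells was at a log2 ratio of −0.37 to the next highest population. Among the aged remaining cells 90 genes (5.4%) were past 2-fold, and 47 of the 54 were among them. Of the 25 genes named by the size of that ratio in the aged library, Jchain, Pou2af1 and Derl3 had no young value. Of the others, each except Hsp90b1 was also at least 2-fold above every other population in the young library.

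The antigen receptor and its partners were among these genes. Cd79a was 157-fold (66.4 to 486) and Cd79b 58.0-fold (33.4 to 110) above the next population, cDC, in the aged library, and 727-fold (128 to 28966) and 96.7-fold (25.9 to 812) above the next in the young. Cd81, a tetraspanin of the cell surface, was 12.8-fold (8.98 to 17.9) above monocytes in aged and 9.68-fold (3.16 to 25.2) above neutrophils in young B cells. Downstream, the adaptor Bank1 was at 34.6-fold (23.0 to 52.4) and 37.3-fold (19.7 to 69.3), the Src-family kinase Blk at 67.8-fold (11.1 to 2784) and 306-fold (43.6 to 13300), and the linker Blnk at 11.2-fold (4.82 to 30.4) and 7.95-fold (2.42 to 27.8). Of a list of 25 receptor-signalling genes, 14 had enough UMIs, and 9 of these were past 2-fold in aged and 8 in young B cells, against 3.24% and 3.43% of all genes, with a median log2 ratio of 3.58 in aged cells. Cd79a and Cd79b are members of this list and were among the 5 markers checked above, and the minimum of 20 UMIs was set in aged B cells. The count is therefore a description and no support for the label. Rac2, Lyn and Bcl10 were below the next population. Lyn, a kinase that myeloid cells also use, stood at 0.666 of its level in aged monocytes (0.504 to 0.864) and Rac2 at 0.471 of its level in aged neutrophils (0.408 to 0.542).

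Of inhibitors of the receptor, 3 of 11 genes were past 2-fold in aged and 2 of 11 in young B cells, against 3.24% and 3.43% of all genes, with a median log2 ratio of −0.11 in aged cells. Cd22, a sialic-acid-binding brake on the receptor, had 36 UMIs in 21 aged cells and 3 UMIs in 3 young cells, 24.4-fold (8.75 to 94.4) and 23.6-fold (3.93 to 103) above the next population. Siglecg was at 6.30-fold (3.98 to 10.2) and 9.10-fold (4.93 to 17.2) above cDC. Fcgr2b, the inhibitory IgG receptor, was at 1.17 times (0.924 to 1.46) its level in aged monocytes. Cd300a, Pirb and Lilrb4a, inhibitory receptors of myeloid cells, were at 0.261, 0.443 and 0.225 of the next population.

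Of the transcription factors of the lineage, Ebf1 was 217-fold (37.8 to 8675) above cDC in aged B cells. Pou2af1, the octamer coactivator, had 55 UMIs in 24 aged cells, 201 CPM against 0.177 CPM in neutrophils, and 27 of these UMIs lay in the 3 Jchain-high cells. It was listed at 0 in every cell of the young library, as were Pax5, with 9 aged UMIs, Jchain and Derl3, and no young value can be read for these genes. Tcf4, Mef2c and Pou2f2 were at 1.99, 1.81 and 1.97 times the level of cDC in aged B cells. Klf2, which keeps lymphocytes circulating, was at 1220 CPM in aged and 1163 CPM in young B cells, against 1436 CPM in aged NK cells. Of the list, 2 of 13 genes were past 2-fold in aged and 5 of 12 in young B cells, against 3.24% and 3.43% of all genes, and 6 in the remaining aged cells, against 5.4%, with a median log2 ratio of −0.23 in aged cells.

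Other genes that marked B cells were Ly6d, 66.9-fold (34.6 to 148) above cDC in aged cells, the Fc receptor-like gene Fcrla at 57.9-fold (18.9 to 288), and Ralgps2 at 17.2-fold (2.86 to 704). Scd1, the enzyme that makes monounsaturated fatty acids, had 21 UMIs in 16 aged and 10 in 4 young B cells and none in the other aged populations, at least 4.16-fold higher. Zcwpw1, a histone-reading protein, was 28.9-fold (9.05 to 148) above cDC with 32 UMIs, but in only 6 of 41 aged cells. Fcer2a, Cr2, Ighd, Ighm and the other immunoglobulin constant genes were not analysed here, so the classical separation of follicular from marginal zone cells was not made. Of other follicular genes, 1 of 4 was past 2-fold in aged and 2 of 4 in young B cells, against 3.24% and 3.43% of all genes. Their median log2 ratio was 0.27 in aged cells. The 1 in aged cells was Fcmr, already among the 5 markers used for the label. Of marginal zone genes, 1 of 5 (Mzb1) was past it in each library, against the same shares of all genes, with a median of −0.84. Mzb1 had 275 of its 458 aged UMIs in the Jchain-high cells.

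MHC class II genes were abundant in B cells, and whether aged B cells stood below or above cDC, the professional presenting cells, moved with the cells counted. Past 2-fold were 2 of 11 genes in aged and 3 of 11 in young B cells, against 3.24% and 3.43% of all genes compared. Genes of the presentation list took 2.50% of the UMIs in young and 2.16% in aged B cells, against 2.97% and 3.24% in cDC and 0.414% and 0.580% in monocytes. In the remaining B cells the list took 2.58% and 3.60%. Cd74 was at 11511 CPM in young and 9499 CPM in aged B cells, against 13443 and 13082 CPM in cDC, and in the remaining aged B cells it was above cDC, at 17024 CPM (16144 to 17939.5). H2-Aa was at 4473 and 3513 CPM. The subunits that distinguished B cells were H2-Ob, a chain of the peptide-editing inhibitor H2-O, at 5.10-fold (3.07 to 8.64) above aged and 8.61-fold (3.41 to 22.8) above young cDC, and H2-DMb2 at 5.47-fold (3.92 to 7.73) and 19.4-fold (9.94 to 40.7). H2-DMb1, the paralogous chain, was at 0.131 (0.0847 to 0.194) of aged cDC. Reads shared between the near-identical H2-DMb copies may be split in the counting.

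The order of the libraries for class II turned with the cells counted. Over all B cells Cd74 had an aged over young ratio of 0.825 (0.761 to 0.895), H2-Aa of 0.785 (0.689 to 0.897) and H2-Eb1 of 0.802 (0.684 to 0.943). Over the remaining cells the ratios were 1.37 (1.23 to 1.53), 1.45 (1.20 to 1.76) and 1.35 (1.09 to 1.70), and H2-Ab1 was at 3593 CPM in young and 5383 CPM in aged cells. None of these reached 2-fold, the median of all compared genes in the remaining cells was a log2 ratio of 0.18, and the ratios move with which cells are counted.

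**Figure D4:**
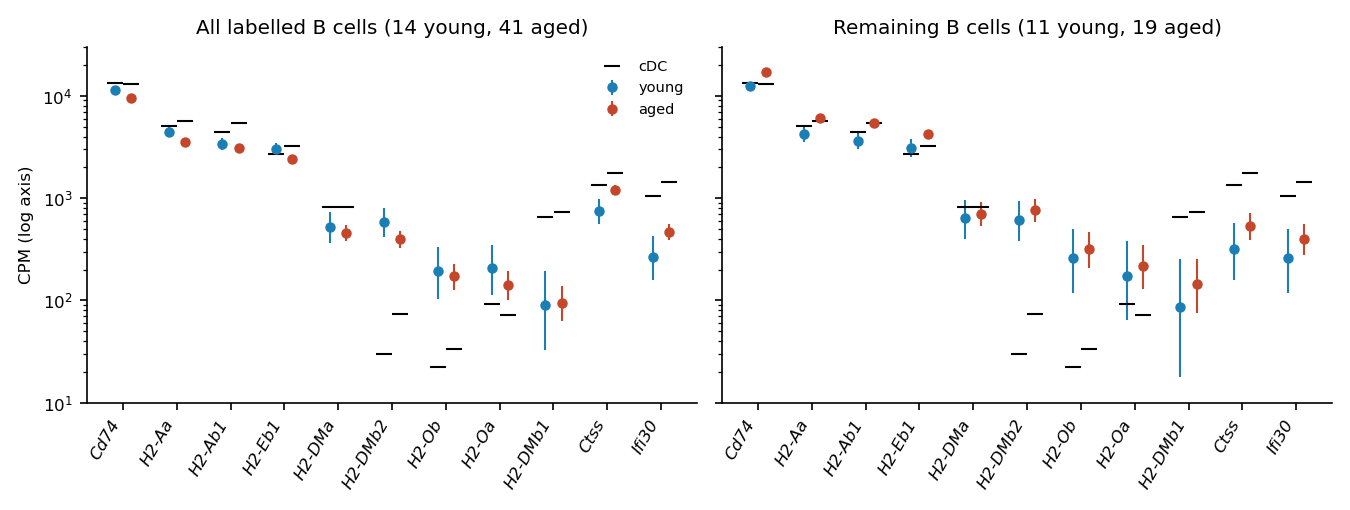
Level in CPM (log axis) of 11 genes of MHC class II presentation in B cells, young in blue and aged in red with 95% Poisson intervals, and in cDC of the same library as black dashes. The left panel holds all labelled B cells and the right panel the remaining ones. Cd74, H2-Aa, H2-Ab1 and H2-Eb1 are higher in the young library on the left and in the aged library on the right, and H2-DMb2 and H2-Ob lie above cDC in both.

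Receptors of migration and survival gave few counts. Of the trafficking list, 1 of 10 genes was past 2-fold in aged and 3 of 10 in young B cells, against 3.24% and 3.43% of all genes, with a median log2 ratio of −0.67 in aged cells. Cxcr5, which draws B cells to follicles, had 8 aged and 5 young UMIs, 21.7-fold (2.91 to 963) above aged cDC. S1pr1, the exit receptor of lymphoid organs, had 23 aged and 7 young UMIs. Ccr7 and Tnfrsf13c, the receptor for the survival factor BAFF, had 13 and 19 aged UMIs and were listed at 0 throughout the young library. Tnfrsf13b, a related receptor, had 31 aged and 7 young UMIs, 114 and 104 CPM. Of Toll-like receptors and partners, Unc93b1, which carries nucleic-acid-sensing receptors to the endosome, had 113 aged and 16 young UMIs. The interferon-induced Ly6a was at 502 CPM in aged and 492 CPM in young B cells, 3.70-fold (2.35 to 6.10) above aged NK cells, while Ifit1, Ifit3 and Rsad2 had 0 UMIs in aged B cells.

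Genes of other B-cell states were sparse. Of the age-associated list, Itgax, Tbx21 and Cxcr3 had 3 UMIs each in aged and 0 in young B cells, and Fcrl5 had 10 UMIs in 9 aged cells, while Cd80 and Sema7a had none in aged B cells. Of 5 genes of the list with enough UMIs, 1 was past 2-fold towards the aged and 0 towards the young library, against 18.1% and 3.89% of all genes compared, so the count does not set the list apart. The list of germinal centre and cycling genes gave 38 aged and 4 young UMIs, of which Fas, a death receptor of activated B cells, made 19 and 1. The cycling genes Mki67 and Top2a had 2 and 1 aged UMIs and none in young B cells. Of the B-1 list, 1 of 6 genes was at least 2-fold above the next population in each library, against 3.24% and 3.43% of all genes. The median log2 ratio was −0.096 in aged cells. The list took 0.173% of aged B-cell UMIs, against 0.213% in neutrophils, 0.190% in monocytes, 0.148% in NK cells and 0.143% in cDC. Zbtb32 had 15 aged and 6 young UMIs and Bhlhe41 10 and 7, too few for that count. Zbtb32 was 74.4-fold (25.7 to 262) above aged monocytes. Bhlhe41 had no UMI in the other aged populations compared, but was at 12.6 CPM in young NK cells.

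Itgam, the transcript of the sorted CD11b antigen, had UMIs in 2 of 14 young and 18 of 41 aged B cells. In the remaining cells it had UMIs in 0 of 11 young and 5 of 19 aged cells. Itgam is 1 of the 12 monocyte markers, so the choice of the remaining cells was not independent of it. In summed counts it was at 117 CPM (80.2 to 165) in aged B cells and 60.8 CPM (19.7 to 142) in the remaining aged ones. Aged NK cells had 105 CPM (61.0 to 168) and aged monocytes 163 CPM, so the sums did not place aged B cells below NK cells. After thinning to 1000 UMIs, 0 of 41 aged B cells had a UMI of Itgam, against 6.35% of aged NK cells and 15.3% of aged monocytes. At 3 counts, that 0 allows up to 7.32% of cells with a UMI at this depth, and it does not limit the share of cells that express the gene. Ly6g had UMIs in 3 of 14 young and 8 of 41 aged B cells and in none after thinning. The surface protein was not measured here.

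Markers of NK cells, T cells, platelets, basophils and mast cells were near 0. The 12 NK markers summed to 9 UMIs in young and 20 in aged B cells, 0.0134% and 0.00733% of UMIs against 4.51% and 5.06% in NK cells, with Klrb1c, Ncr1 and Eomes at 0 in aged B cells. T-cell markers summed to 1 and 10 UMIs, and Cd3e and Cd4 were at 0 in aged B cells. Platelet markers summed to 0 and 6 UMIs and basophil and mast-cell markers to 0 and 1. The plasmacytoid dendritic cell list was not near 0, at 112 young and 302 aged UMIs, 0.167% and 0.111% of UMIs against 0.0458% and 0.0435% in cDC. Of these UMIs, Ly6d, also a B-lineage marker, made 91 and 222 and Tcf4 14 and 55, while Siglech was at 0 in both libraries.

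Between libraries, 358 of 1981 genes (18.1%) were at least 2-fold higher and 77 (3.89%) at least 2-fold lower in aged than in young B cells, with a median log2 ratio of 0.30. With the ratios centred on that median the counts were 229 and 158, and with totals taken without ribosomal protein and mitochondrial genes 270 and 131. In the remaining cells 100 of 628 genes (15.9%) were higher and 28 (4.46%) lower, with a median of 0.18. Since the young cells had 67066 UMIs, many of these counts rest on few molecules.

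Among the 8 genes that ranked highest were Hsp90b1, Manf, Hspa5 and Sdf2l1 of the folding machinery, and most of their aged UMIs lay in the Jchain-high cells. Hsp90b1 had 6 UMIs in young and 284 in aged cells, at a ratio of 11.6 (5.28 to 32.0), of which 230 UMIs came from the 3 cells, and the ratio was 2.45 without them. Manf had 4 and 172 UMIs, a ratio of 10.6 (4.05 to 39.2), and 2.66 without the 3 cells. Hspa5 had 5 and 123 UMIs, a ratio of 6.04 (2.52 to 18.9), and 1.91 without them. Sdf2l1 had 0 and 70 UMIs, at least 5.73-fold higher, and at least 1.18-fold without the 3 cells, which held 57. Spcs2, a subunit of signal peptidase, had 3 and 98 UMIs, a ratio of 8.03 (2.67 to 39.6), and 4.90 without the 3 cells, which held 44.

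The other 3 rested less on these cells. Ifitm2, an interferon-induced membrane protein, was at 403 CPM in young and 1465 CPM in aged B cells, a ratio of 3.64 (2.46 to 5.59). In the remaining cells its ratio was 4.51 (1.64 to 17.3), on 4 young and 43 aged UMIs. Its ratio was 2.87 in NK cells, 1.56 in monocytes and 1.33 in neutrophils, and aged B cells had 0.246 of the level of aged neutrophils. Anxa2, a membrane-binding annexin, had 179 CPM in young and 751 in aged cells, with a ratio of 4.20 (2.35 to 8.26), and of 5.73 (1.83 to 28.9) in the remaining cells, where all 3 young UMIs lay in 1 cell. Its ratio was 1.39 (1.33 to 1.44) in monocytes, 1.21 in cDC, 1.13 in NK cells and 1.07 in neutrophils. It had UMIs in 4 of 14 young and 25 of 41 aged cells. Emc7, a subunit of a membrane insertase, had 0 and 35 UMIs, at least 2.87-fold higher, and at least 1.35-fold without the monocyte-marker-high cells. In the remaining cells it had 0 and 6 UMIs, where the bound was 0.839 and no higher level can be read.

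**Figure D5:**
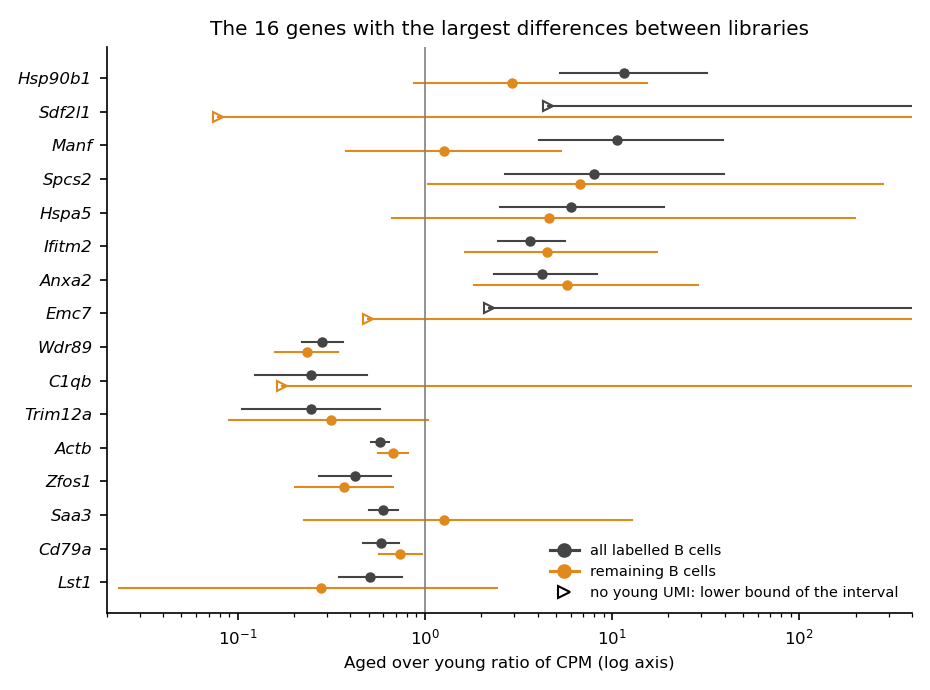
Aged over young ratio of CPM (log axis) with its 95% interval for the 8 highest and 8 lowest ranking genes, over all labelled B cells in grey and over the remaining cells in orange. An open triangle is the lower bound of the interval where the young cells had no UMI. In the remaining cells the intervals of Hsp90b1, Sdf2l1, Manf, Hspa5, Emc7, C1qb, Trim12a, Saa3 and Lst1 include 1, and those of Spcs2, Ifitm2, Anxa2, Wdr89, Actb, Zfos1 and Cd79a do not.

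Among the 8 lowest, Wdr89 was at 1834 CPM in young and 520 CPM in aged B cells, a ratio of 0.284 (0.221 to 0.364). Its ratio was 0.294 in monocytes, 0.288 in NK cells and 0.238 in neutrophils, so it was lower in the aged library in each of these populations. The 9 ribosomal pseudogene copies were each at least 2-fold lower, with a median log2 ratio of −1.96 in B cells and −1.51 in monocytes, while 80 ribosomal protein genes had a median of −0.29. Actb, the cytoskeletal actin, had 7127 CPM in young and 4088 in aged cells, with a ratio of 0.574 (0.515 to 0.640), and 0.673 in the remaining cells. Zfos1 had 35 and 60 UMIs, a ratio of 0.421 (0.273 to 0.659), against 0.626 (0.499 to 0.787) in neutrophils, 1.04 in monocytes, 1.02 in cDC and 1.17 in NK cells. Trim12a had 13 UMIs in each library, a ratio of 0.246. Cd79a, at 0.582 (0.469 to 0.725), was at 0.741 in the remaining cells. C1qb, Saa3 and Lst1, genes of myeloid cells, had 19, 173 and 41 young UMIs, and in the remaining young cells 0, 2 and 3. All 19 young C1qb UMIs lay in 1 cell, and without the deepest cell of each library the ratio was at least 1.21 in place of 0.246.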

How the data were processed

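The deposited table held UMI counts (molecules counted per gene and cell) as the authors deposited them, with a line of their population labels. Cell Ranger 2.1.1 and mm10 are named in the submitters' processing notes. The alignment settings, filters on cells and genes, and any doublet removal are likewise not given in sources used here.

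For each label and library the cells' counts were added up and scaled to CPM by their own total. Exact Poisson intervals accompany sums, ratios exact conditional binomial intervals and for shares the Clopper-Pearson method was used, always at 95%. No test was run and no p-value computed, since each age had 1 library. The comparison populations were the 4 with at least 50 aged and 30 young cells. A gene needed 20 UMIs in aged B cells for the comparison with other populations, and 20 UMIs over both libraries for the comparison of libraries. Of all listed genes 854 were at 0 in every young cell, in 1 closing block, and every other gene had a UMI in at least 3 young cells. A 0 in that block may be a filter, so its genes received no young value and no ratio.

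The 25 genes named against other populations had the highest lower bound of the ratio in the aged library. The 16 named between libraries were the 8 at each end, ranked by the bound nearest to 1. Neither rule named ribosomal protein, mitochondrial or globin genes, pseudogenes or unnamed gene models. Members of gene lists were named as examples, picked with their values in view. The members, lists and rules were chosen with earlier results of these data known.

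The thresholds on Jchain and on monocyte and neutrophil markers were set after seeing the data. Scrublet in scanpy 1.11.5 called 4 cells in each library as doublets, which is too few for its threshold to have worked, so no cell was left out in the main values. Removal of the 27 young and 124 aged cells with the highest scores is an alternative. Depth-matched values came from cells thinned to 1000 UMIs, for which no cell was too shallow. The ratio code was tested on simulated counts. Figures were drawn with matplotlib 3.10.9. TMM factors came from edgeR 4.0.16. Promoters are RefSeq sequences on GRCm38.p6, the assembly that mm10 denotes, and gene positions are from GENCODE M21 on the same build. Results on 2 genes of the lists are not reported here.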

Additional observations from a re-analysis of the deposited data

How the results depend on the processing

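No paired analysis was possible because each age had 1 library. The counts of genes past 2-fold moved with the minimum number of UMIs. With 50 UMIs, 23 genes stood above every other population in aged and 26 in young B cells, and of 800 genes 106 were higher and 24 lower in the aged library. With 10 UMIs these counts were 130, 117, 740 and 246, the last 2 of 3655 genes. Fewer or more genes were then compared. Ratios centred on their median gave 229 higher and 158 lower genes, thinning each cell to 1000 UMIs gave 57 and 24 of 340, and leaving ribosomal protein and mitochondrial genes out of the total gave 131 lower genes. The following alternatives were chosen after seeing the data. Without the cells high in monocyte markers, 204 of 911 genes were higher and 38 lower in the aged library. Without those, the cells high in neutrophil markers and the Jchain-high cells, 100 of 628 were higher and 28 lower, and the aged share of B cells was 0.482%. Of the 447 single-gene values under alternatives, 402 stayed within the interval of the main value or, where that was a bound, within 1.5 times of it. Another 39 lay outside it on the same side of 1, and 6 crossed 1. Part of the 402 could not have moved. The minimums of 10 and 50 UMIs change only which genes are counted, so their 25 and 16 values each were fixed. Removing the highest doublet scores left out no B cell, so its 16 values between libraries were fixed as well. Without the Jchain-high cells, Jchain was at 0.752 and Hsp90b1 at 0.686 of the next highest population, and without all 3 kinds of cell Hsp90b1 was at 0.797. The ratio of C1qb between libraries became at least 1.21 without the deepest B cell of each library. That of Saa3 became 1.48 without the cells high in monocyte markers and 1.26 (0.225 to 12.7) without all 3 kinds, on 2 young and 6 aged UMIs. The cause of these changes was not tested, except that left-out cells held the UMIs concerned for Jchain, Hsp90b1 and C1qb. For Saa3, the left-out young cells held all but 2 of the 173 young UMIs. For 11 combinations of gene and alternative both groups had too few UMIs and no value is given.
Depth sets what can be seen: 1 UMI was worth 14.9 CPM in young and 3.66 CPM in aged B cells.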

Other observations

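The B cells differed in Apoe, the apolipoprotein E gene that monocytes also express. Per 10000 UMIs of the cell, aged B cells ran from 0 to 254 with a median of 20.3, and young ones from 0 to 90.9 with a median of 5.52, while no NK cell of either library exceeded 16.1. At least 20 UMIs were found in 15 of 41 aged and 1 of 14 young cells, and at most 5 UMIs in 14 and 9. In summed counts Apoe was at 3960 CPM in aged and 2371 CPM in young B cells, against 3367 and 3173 CPM in monocytes. Of its 1081 aged UMIs, 874 lay in the 15 monocyte-marker-high cells, among them 12 of the 15 cells with at least 20, and of its 159 young UMIs 131 lay in the 3 such cells. In the remaining cells it was at 2102 CPM in aged and 811 CPM in young B cells. The part of monocyte RNA in these values was not tested.

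The genes Zcwpw1, Zbtb32 and Bhlhe41 of the B-1 list each had UMIs in a minority of cells. These were 3, 5 and 5 of 14 young and 6, 9 and 7 of 41 aged cells. In young B cells the 3 genes were at 74.6, 89.5 and 104 CPM, on 5, 6 and 7 UMIs. No other young population compared exceeded 6.32, 1.08 and 12.6 CPM. At least 1 of the 3 had a UMI in 17 of 41 aged and 7 of 14 young cells, and at least 2 had one in 5 and 4. Of the 32 aged UMIs of Zcwpw1, 27 lay in 4 cells.

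Among the remaining aged cells, 3 had at least 7000 UMIs, a choice made after seeing the data. They had more S100a6 than the other 16, at 7819 against 2051 CPM, but 253 of their 266 UMIs lay in 1 cell. Lgals1 was at 1293 against 352 CPM, at 22, 2 and 20 UMIs, and Cd52 at 3645 against 1533 CPM, at 2, 45 and 77 UMIs. Klf2 was lower in them, at 412 against 2382 CPM, and so was Ly6d, at 588 against 2237 CPM.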
